A study of Homo sapiens with 24 samples.

Results

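The comparison described here is that of 3 arrays taken 24 h after replating with 3 arrays taken 16 h after replating, over all probe sets that are not array controls. It uses 6 of the 24 arrays of a course that sampled HepaRG cells at 8 times from 0 h to 48 h. Of 22215 such probe sets, 17122 were bright enough to test, and they gave 9966 genes with 1 symbol each, 1 probe set per gene. HepaRG is a human hepatoma line whose bipotent progenitors can become hepatocyte-like and biliary-like cells. Both groups were the hepatocyte-like fraction of cultures kept for 2 weeks and then for 2 more weeks in medium with 2% DMSO, loosened selectively with mild trypsin and plated again at low density. That replating sets off the loss of the hepatocyte state, and time was the one variable that differed between the groups. HepaRG is a single line, and the labels number replicates 1 to 3 without saying whether they were separate cultures. Each p-value therefore reflects scatter among replicate arrays, and that scatter may be technical. For the limma p-values the scatter was estimated over all 24 arrays of the 8 times, not over the 6 compared alone.

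A differentiated hepatocyte rests outside the cell cycle and has to rebuild the replication machinery before it can copy its DNA, and the mitotic machinery after that. Genes of mitosis are largely transcribed late, in G2, when the repressive DREAM complex has left their promoters and the MYBL2-MuvB complex, FOXM1 and NF-Y act there, while genes of DNA replication are transcribed earlier under E2F factors. The proteins of the late group drive the entry into mitosis (cyclin B with CDK1, Aurora and Polo kinases), attach chromosomes to the spindle (kinetochore), hold separation until all are attached (the spindle checkpoint) and then split the cell (the midzone and cytokinesis proteins).

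Signals are MAS5 intensities, a linear measure of probe brightness, and differences are on the log2 scale after 18 was added to every signal, which understates changes of dim genes. A log2 difference of 1 is a 2-fold difference. A gene was counted as risen or fallen when its limma p, adjusted by the Benjamini-Hochberg method over all 9966 genes, was under 0.05 and the difference was at least 2-fold. By that rule 131 genes (1.31% of those tested) differed between 16 h and 24 h. Of these, 82 (0.823%) rose and 49 (0.492%) fell. At an adjusted p under 0.05 and any size of difference, 202 (2.03%) were higher and 155 (1.56%) lower. The median log2 difference of all genes was 0.037. The array values of the 2 times lay apart for 81 of the 82 risen and 48 of the 49 fallen genes, against 1141 genes (11.4%) with all 24 h values above all 16 h values and 787 (7.9%) with all below, 1928 (19.3%) in either direction. Among the 131 genes, 49 had further tested probe sets, and 76 of those 79 probe sets differed in the same direction. With every probe set tested on its own, 25 of the 79 were also called in that direction.

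The technical measures overlapped between the times. The median signal was 109 ± 7.67 (SD, n = 3) at 16 h and 114 ± 10.8 at 24 h (exact permutation p = 0.5, two-sided, where 3 against 3 cannot go below 0.1). The 3′ to 5′ ratio of the ACTB control was 1.42 ± 0.226 and 1.35 ± 0.147 (n = 3 each, exact permutation p = 0.8), within a range of 1.02 to 6.91 over all 24 arrays. Correlations of log2 signals were 0.951 to 0.959 within the 2 times and 0.943 to 0.951 between them. The third 16 h and the third 24 h array had the lowest median signals of the 24 arrays, 99.76 and 102.1, and correlated best with a 12 h and a 48 h array, while the other 4 correlated best with their own time. The 15 hepatocyte markers measured were above the 40th percentile of their array on all 6 arrays, and their summed signal was 345800 to 378800 at 16 h and 269400 to 326300 at 24 h. Of the 6 biliary markers, 4 were above that level on all 6 arrays and EPCAM on none, with sums of 15650 to 20480 and 13360 to 19570. Leukocyte markers summed to 469.6 to 682.2 and 546.7 to 674.2, endothelial markers to 247.5 to 342.8 and 236.4 to 275.7, and stellate and fibroblast markers to 3224 to 3745 and 3600 to 4212, and none of the markers of these 3 classes was called. ACTA2, the smooth muscle actin of the stellate list, was higher at 24 h under 2-fold (1507 ± 135.4 and 2149 ± 95.61, SD, n = 3, log2 0.51, limma adjusted p = 0.044), and its part in other results was not tested. The sum of 8 markers of mitotic cells went from 3123 to 3665 at 16 h to 10400 to 11650 at 24 h, and 7 of them rose. In RNA from whole cultures, more cells in a state and more RNA per cell cannot be told apart.

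The genes that trigger entry into mitosis were higher at 24 h. CCNB1 encodes cyclin B1, the partner of CDK1 at mitotic entry, and its signals were 813.9, 621.7 and 649.3 at 16 h and 2492, 1997 and 2336 at 24 h. All 24 h arrays lay above all 16 h arrays, a 3.22-fold rise (log2 1.69, SE 0.167, limma adjusted p = 2.8e-08). CDK1, the kinase itself, read 1897, 1289 and 1519 at 16 h and 4952, 4466 and 5684 at 24 h (log2 1.68, SE 0.209, limma adjusted p = 3e-06). Its 2 further probe sets differed by 1.19 and 1.43. CCNA2, the cyclin A2 of S and G2 phase, rose from 595.6, 468 and 422.4 to 1169, 1454 and 1719 (log2 1.51, limma adjusted p = 2.7e-05). The groups were again apart for both CDK1 and CCNA2.

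Aurora kinases rose with them. AURKA, which acts at spindle poles, went from 554.9, 572.7 and 392.3 to 2106, 2019 and 2844, a 4.47-fold rise (log2 2.16, SE 0.229, limma adjusted p = 1.2e-07). AURKB, the kinase of the chromosomal passenger complex, rose by 1.67 (adjusted p = 1.3e-05), and BIRC5, survivin, a member of that complex, by 1.52 (adjusted p = 8.3e-05). PBK, a mitotic kinase, went from 876.2, 649.9 and 641.2 to 2865, 2719 and 2680 (log2 1.92, limma adjusted p = 4.3e-10), and NEK2, a centrosome kinase, rose by 1.68 (adjusted p = 6e-04). Of the 23 tested genes of the list of mitotic entry kinases and cyclins, 13 rose and 0 fell, with a median of 1.264. PLK1, Polo-like kinase 1, did not pass: its signals were 77.97, 160.6 and 33.3 at 16 h and 186.7, 211.4 and 186.2 at 24 h (log2 1.15, SE 0.354, limma adjusted p = 0.067). The 16 h values of PLK1 were the widely scattered ones, and without the second 16 h array the difference passed (1.6, adjusted p = 0.0078).

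**Figure D1:**
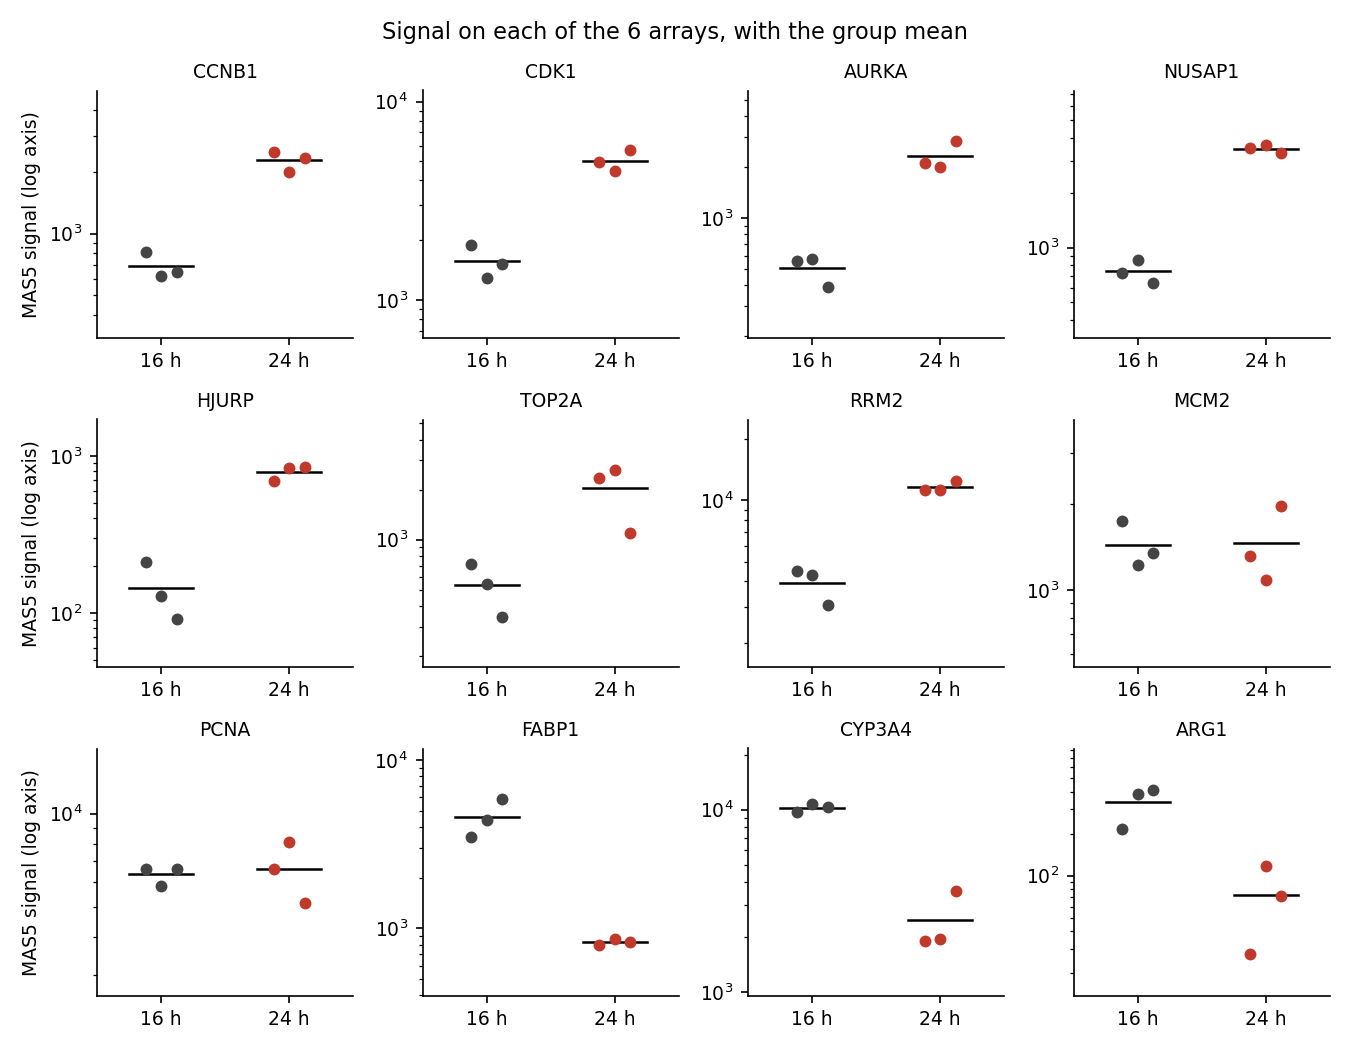
MAS5 signals (log axis) of 12 genes on each of the 6 arrays, dark points for 16 h and red points for 24 h, with the mean of each group as a bar. The 24 h points of the first 7 genes lie above their 16 h points, those of FABP1, CYP3A4 and ARG1 lie below, and those of MCM2 and PCNA overlap.

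Of 34 spindle and cytokinesis genes tested, 17 rose, 0 fell, and the median was 1.298. NUSAP1, which bundles spindle microtubules, went from 729.2, 851.3 and 640.9 to 3512, 3643 and 3317. That 4.65-fold difference (log2 2.22, SE 0.148) had the smallest adjusted p of the comparison, 6.7e-12 by limma, and a further probe set gave 2.04. HMMR, a spindle-assembly protein, went from 465.3, 505 and 630.3 to 1973, 1966 and 1835 (log2 1.83, limma adjusted p = 2.3e-05). PRC1, which cross-links the antiparallel microtubules of the midzone, went from 769.5, 950.5 and 781.8 to 2313, 3283 and 3479 (log2 1.82, limma adjusted p = 7.3e-07). For all 3 genes the groups were well apart. ASPM, a spindle-pole protein, rose by 1.75, KIF2C, a kinesin that takes down microtubules at centromeres, by 1.74, RACGAP1, the GTPase-activating partner of the midzone kinesin, by 1.6, KIF20A, a midzone kinesin, by 1.54, and TPX2, the activator of AURKA, by 1.36, with limma adjusted p from 3.9e-06 to 0.0013. KIF11, the kinesin that pushes spindle poles apart, rose by 1.56 (adjusted p = 0.026), a call that ended without any one of the arrays other than the third 16 h array. The KIF11 call also ended with no constant added, after quantile normalization and with no brightness filter.

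At the centromere and kinetochore 8 of 24 tested genes rose and 0 fell, with a median of 0.663. HJURP, the chaperone that deposits the centromeric histone CENPA, went from 210.7, 129 and 91.02 to 696.9, 832 and 852.1, a 5.25-fold rise (log2 2.39, SE 0.43, limma adjusted p = 0.00054). NDC80 and SPC25 belong to the complex that grips the microtubule end and rose by 1.85 (adjusted p = 0.00094) and 1.66 (adjusted p = 0.0018). CENPE, a kinetochore motor, read 53.05, 102.2 and 115.8 at 16 h and 350.9, 389 and 376 at 24 h (log2 1.90, limma adjusted p = 0.013). CENPF, a kinetochore protein that builds up in G2, rose by 1.47 (adjusted p = 0.0059). The call for CENPE ended with no constant added, without the first 16 h array or without the second or the third 24 h array, and that for CENPF without the third 16 h array, which left 5 of the 24 kinetochore genes.

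The list of spindle checkpoint genes and the anaphase-promoting complex was divided. Of its 22 tested genes 9 rose and 0 fell, yet the median was 0.36. DLGAP5, a spindle protein and substrate of that complex, went from 195.8, 182.1 and 249.9 to 957.9, 926.8 and 974.8 (log2 2.11, SE 0.266, limma adjusted p = 3.7e-06). PTTG1, securin, which holds separase inactive, rose by 1.63 (adjusted p = 9.9e-09), from a probe set that may also match related transcripts. ESPL1, separase itself, rose by 1.48 (adjusted p = 0.00056), and the checkpoint kinases TTK and BUB1B by 1.43 (adjusted p = 0.0036) and 1.38 (adjusted p = 0.00028). BUB1, their partner at the kinetochore, rose by 1.35 (adjusted p = 0.03), a call that ended without any one of the arrays other than the first 16 h array. The BUB1 call also ended with no constant added, after quantile normalization and with no brightness filter. As the mean of its probe sets BUB1 differed by 0.82 (limma adjusted p = 0.29). FBXO5, an inhibitor of the complex, rose by 1.43 (adjusted p = 0.0062), though not without the third array of either time. CDC20, the activator that the checkpoint restrains, went from 863.6, 965.6 and 835.6 to 1960, 2173 and 2204 (log2 1.23, limma adjusted p = 8.7e-05). Core subunits of the complex on the same list were not called, among them CDC16, CDC23 and CDC27, with log2 differences of 0.077, 0.22 and 0.006 and limma adjusted p of 0.89, 0.78 and 0.99.

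Chromosome structure genes followed in part, with 5 of 25 risen, 0 fallen and a median of 0.568. TOP2A, which untangles sister chromatids, went from 718.8, 540.4 and 345.5 to 2364, 2638 and 1099 (log2 1.85, SE 0.247, limma adjusted p = 8e-06). The third 24 h array was the lowest of that group and still above every 16 h array. The condensin subunits NCAPG2 and NCAPG rose by 1.59 (adjusted p = 2e-05) and 1.21 (adjusted p = 0.00013). HMGB2, a chromatin protein on that list, lay at the 2-fold limit (log2 1.0, adjusted p = 3.8e-05) and was not called without the first or the second 16 h or the second or the third 24 h array, with the larger constant or under median centring. MKI67, the Ki-67 proliferation antigen, read 264.7, 281.9 and 251.1 at 16 h and 433.2, 395.2 and 381 at 24 h, and its log2 difference of 0.57 did not pass (limma adjusted p = 0.26), although the values did not overlap.

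None of the factors that act on mitotic promoters passed the test: all 10 tested were above 0, with a median of 0.48, limma called 0, and 4 had an unadjusted p under 0.05. FOXM1 read 289.7, 144.3 and 187.1 at 16 h and 437.6, 267.7 and 766.9 at 24 h, overlapping ranges (log2 1.11, limma adjusted p = 0.16, from a probe set that may also match related transcripts). MYBL2 went from 134.6, 208.6 and 122 to 231, 304.7 and 231.3 (log2 0.68, limma adjusted p = 0.66). MXD3, a repressor that pairs with MAX and was on no list, did rise. Its signals were 6.662, 99.73 and 21.76 at 16 h and 319.2, 243.7 and 247.6 at 24 h, the largest log2 rise of the comparison (2.56, SE 0.505, limma adjusted p = 0.0016). The lowest 2 of its 16 h values lay far under the 40th percentile of the 6 arrays, 58.8 to 75.2, so the size of that rise rests on near-background signals. Together the 6 mitotic lists held 137 tested genes, of which 52 rose and 0 fell, a median of 0.847. Those 52 made up 63.4% of all genes that rose.

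**Figure D2:**
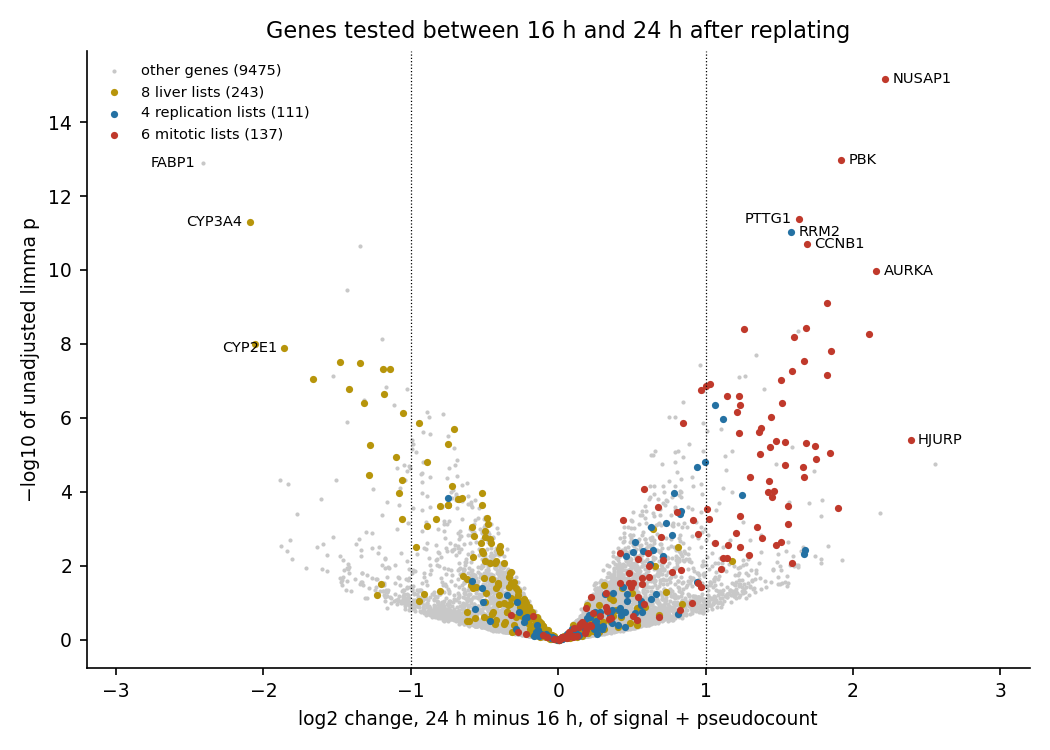
The log2 difference of each of the 9966 genes tested (24 h minus 16 h, horizontal) against −log10 of its unadjusted limma p (vertical), with the genes of 3 groups of lists in colour and dotted lines at a 2-fold difference. Red points of the mitotic lists fill the right arm, with NUSAP1 at its top, and genes of the liver lists much of the left arm, where FABP1, on no list and so in grey, stands highest.

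Promoter sequences were set beside these values because genes of this kind are known to share 2 elements, the CCAAT box bound by NF-Y and the cell cycle genes homology region (CHR) bound by MuvB complexes. The sequences are RefSeq promoters of the GRCh38.p14 build, read from 250 bases before the start of transcription to 30 bases after it, 5′ to 3′ on the strand of the gene, and capitals mark CCAAT or its reverse complement ATTGG and the CHR letters TTTGAA or TTCGAA on either strand. The regions were chr1:43358731-43359010 (plus strand) for CDC20, chr5:163460382-163460661 (plus) for HMMR, chr15:90994506-90994785 (minus) for PRC1, chr15:41332631-41332910 (plus) for NUSAP1, chr5:69166900-69167179 (plus) for CCNB1 and chr2:88128033-88128312 (minus) for FABP1. The first 5 rose and are shown for the arrangement of the elements, and FABP1, the largest fall, is shown for contrast.
CDC20: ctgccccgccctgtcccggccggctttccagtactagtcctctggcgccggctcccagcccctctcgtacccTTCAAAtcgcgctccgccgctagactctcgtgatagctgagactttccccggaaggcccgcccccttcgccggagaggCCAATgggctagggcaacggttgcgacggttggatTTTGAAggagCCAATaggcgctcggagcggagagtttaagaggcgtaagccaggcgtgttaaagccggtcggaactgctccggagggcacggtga
HMMR: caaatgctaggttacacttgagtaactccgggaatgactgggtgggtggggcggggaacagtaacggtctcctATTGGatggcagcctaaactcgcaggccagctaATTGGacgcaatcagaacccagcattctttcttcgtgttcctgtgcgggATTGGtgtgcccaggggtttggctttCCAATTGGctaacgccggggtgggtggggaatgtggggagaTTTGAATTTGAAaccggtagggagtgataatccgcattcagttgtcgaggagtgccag
PRC1: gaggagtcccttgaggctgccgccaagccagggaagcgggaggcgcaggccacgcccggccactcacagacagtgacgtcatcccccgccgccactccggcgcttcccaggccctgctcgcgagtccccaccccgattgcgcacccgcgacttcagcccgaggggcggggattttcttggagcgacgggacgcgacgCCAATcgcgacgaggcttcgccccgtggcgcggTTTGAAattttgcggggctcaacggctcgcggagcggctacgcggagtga
NUSAP1: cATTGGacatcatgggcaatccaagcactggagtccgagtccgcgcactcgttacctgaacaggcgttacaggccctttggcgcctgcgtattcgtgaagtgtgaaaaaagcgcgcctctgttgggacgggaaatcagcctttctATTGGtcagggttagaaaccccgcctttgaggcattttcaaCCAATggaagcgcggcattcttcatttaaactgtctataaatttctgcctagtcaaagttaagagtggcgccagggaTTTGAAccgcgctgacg
CCNB1: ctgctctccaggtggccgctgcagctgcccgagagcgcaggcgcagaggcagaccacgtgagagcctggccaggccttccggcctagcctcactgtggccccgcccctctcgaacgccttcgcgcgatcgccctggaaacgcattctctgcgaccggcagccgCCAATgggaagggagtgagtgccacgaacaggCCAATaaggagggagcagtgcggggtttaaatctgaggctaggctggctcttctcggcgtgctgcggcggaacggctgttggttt
FABP1: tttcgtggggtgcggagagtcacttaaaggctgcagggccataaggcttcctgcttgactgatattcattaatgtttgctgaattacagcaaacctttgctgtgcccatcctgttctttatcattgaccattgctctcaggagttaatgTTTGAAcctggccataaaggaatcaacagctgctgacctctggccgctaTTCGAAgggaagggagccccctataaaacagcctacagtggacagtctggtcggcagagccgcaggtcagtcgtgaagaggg
In CDC20 the CHR began 65 bases before the start and CCAAT boxes at 100 and 55, on either side of it, and a further CHR match on the reverse strand began at 178. PRC1 held 1 CHR, beginning 20 bases before the start, and 1 CCAAT box, at 53. HMMR had 2 CHR copies head to tail, beginning 28 and 22 bases before the start, downstream of CCAAT boxes in both orientations, 2 of which overlap. NUSAP1 carried its CHR 14 bases into the transcript. CCNB1 had CCAAT boxes at 87 and 55 bases before the start and neither TTTGAA nor TTCGAA. Other forms of the CHR were not searched for. FABP1 had CHR letters 101 and 52 bases before the start and no CCAAT box.

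Motifs were counted over 300 bases, from 250 before the start to 50 after it. Over the promoters matched, the CHR letters were present in 54.9% of 71 genes that rose, in 23.5% of 34 genes that fell and in 11.8% of all 8116 tested genes with a promoter. For all 27305 promoters in the table the share was 16.6%. A window within 50 bases of the start was chosen after the sequences were seen. CHR letters began in it in 38.0% of the risen, 0 of the 34 fallen and 3.28% of all tested genes. The FABP1 match that began 52 bases before the start fell just outside, so that 0 depends on where the window was set. Over the 300 bases CCAAT was held by 64.8% of the risen, 41.2% of the fallen and 37.4% of all tested genes. Both elements were held by 42.3%, 8.82% and 4.93%. Within the mitotic lists the CHR letters were in 66.7% of the 45 genes that rose and in 42.5% of the 73 that were not called. E2F letters (TTTGGCGC, TTTGCCGC, TTTCGCGC or TTTCCCGC on either strand, matches that may overlap those of the other elements) were in 12.7% of the risen, 2.94% of the fallen and 5.22% of all tested genes. A match of letters is a description of the sequence, and binding was not measured.

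Fewer genes of the replication lists than of the mitotic lists rose between 16 h and 24 h. Of 111 tested genes on 4 lists (origin licensing, the replication fork and nucleotide synthesis, G1 cyclins with E2F and RB, and DNA damage response), 4 rose, 0 fell, and the median was 0.213. That was still a larger share than the 0.823% of all tested genes that rose. On the fork list 2 of 36 (5.56%) rose and 33 were above 0. MCM2, a subunit of the helicase loaded at origins, read 1747, 1227 and 1348 at 16 h and 1318, 1081 and 1968 at 24 h, and PCNA, the sliding clamp of the polymerases, 6633, 5820 and 6631 against 6596, 8113 and 5155. Both overlapped between the times (log2 -0.014 and 0.036, limma adjusted p = 0.99 and 0.97). None of the 25 tested genes of the origin list was called by limma, and 4 of them were higher and 1 lower at an unadjusted p under 0.05. The one nearest to the rule was DBF4, the activator of the CDC7 kinase, at 1.0 (adjusted p = 0.0015, just under 2-fold). It was called without the first or the second 16 h or the third 24 h array, and without the second 16 h array 2 origin genes were called.

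The replication genes that rose were RRM2, RRM1, CDKN3 and FANCI. RRM2, the cell-cycle-regulated subunit of ribonucleotide reductase, went from 4475, 4275 and 3047 to 11200, 11220 and 12490, with the groups far apart (2.99-fold, log2 1.58, SE 0.151, limma adjusted p = 1.5e-08). RRM1, the other subunit of that enzyme, rose by 1.06 (adjusted p = 8.7e-05), a call that ended without the second 16 h or the second 24 h array, as the mean of its probe sets and under median centring, and without the former 1 of the 36 genes of the fork list was called in place of 2. CDKN3, a phosphatase that acts on CDKs, rose by 1.12 (adjusted p = 0.00017) and FANCI, of the interstrand crosslink repair pathway, by 1.24 (adjusted p = 0.007), the latter not without the third 16 h or the third 24 h array. CCND1, cyclin D1, went the other way, from 1469, 1272 and 1359 to 748.4, 835.5 and 835.3, all lower at 24 h. Its log2 difference of -0.75 (limma adjusted p = 0.008) was under 2-fold. A further CCND1 probe set gave -1.22, over 2-fold (limma adjusted p = 0.011 with every probe set tested on its own). CDKN1A, the p53 target p21, was nearly level, at 3459, 3857 and 3204 and then 4036, 4165 and 3379 (log2 0.14, limma adjusted p = 0.72). Of 22 tested p53 targets limma called 0, or 1 without the first 16 h array, and 9 were higher at an unadjusted p under 0.05.

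**Figure D3:**
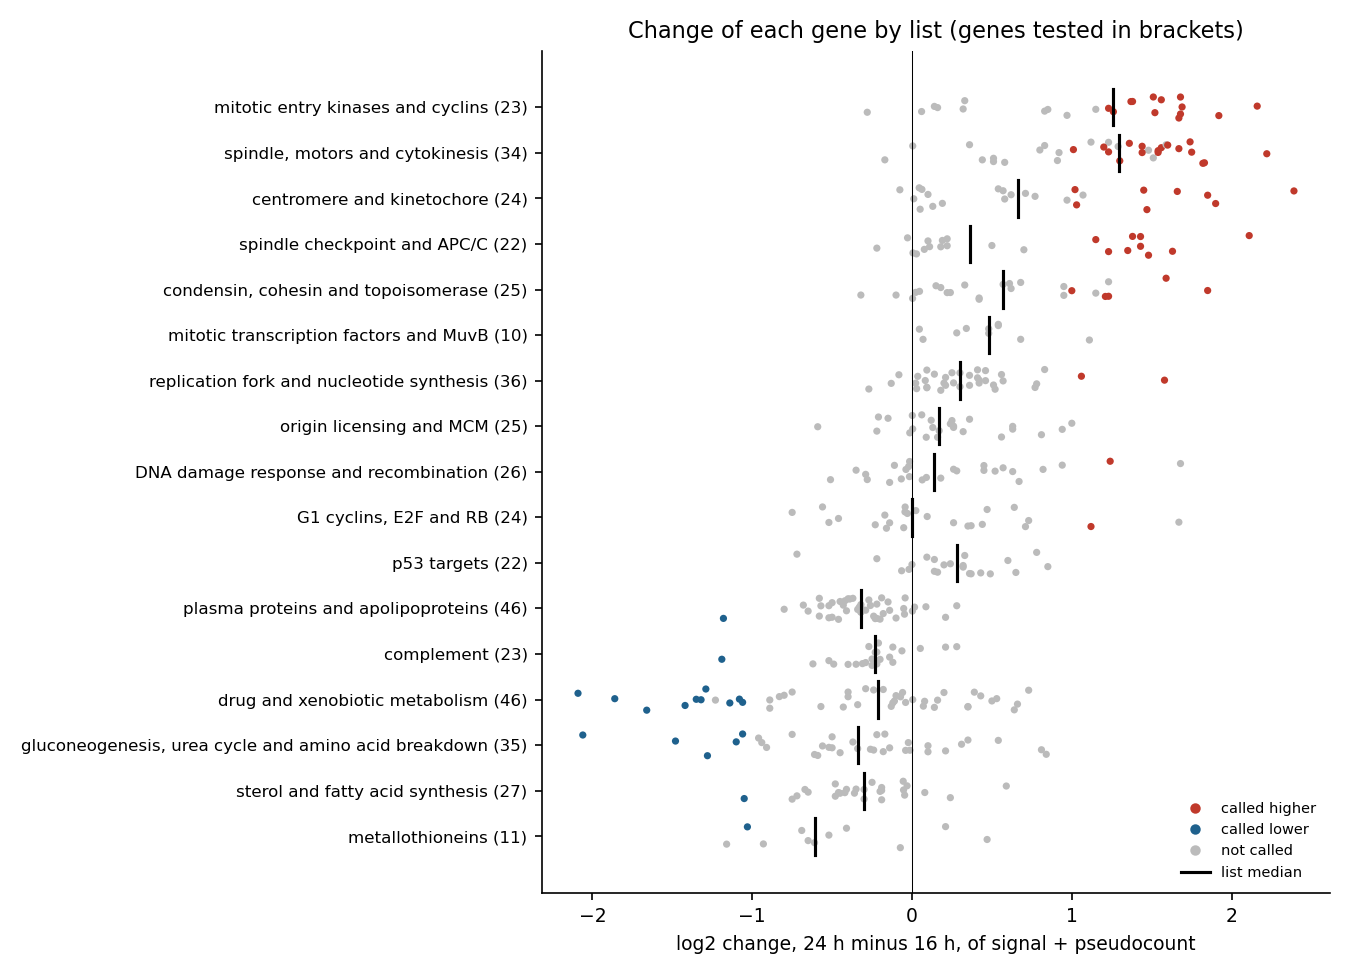
The log2 difference (24 h minus 16 h) of every tested gene on 17 lists, 1 point per gene, red for called higher, blue for called lower and grey for not called, with a black bar at the median of each list. The red points sit in the upper 5 rows apart from 4 in the replication rows, and the blue points in the liver and metallothionein rows.

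An earlier step of the same 8 h length, from 4 h to 12 h, shares no array with that from 16 h to 24 h, so the sizes of change could be compared gene by gene. The difference between the steps was tested in the same limma fit. It passed for 704 genes (7.06%). This step difference is the change from 16 h to 24 h minus that from 4 h to 12 h. A value above 0 can mean a larger rise, a smaller fall, or a fall from 4 h to 12 h that then stopped. Among the genes that passed, it was above 0 for 420 (4.21% of those tested) and below 0 for 284 (2.85%). That split depended on the scaling, since median centring of the arrays, which moved the median of all genes from 0.03 to -0.099, gave 303 and 422. Among the 137 mitotic genes it passed above 0 for 16 and below 0 for 5, the latter a share near the 2.85% of all genes. The rest were not called. Of the 111 replication genes 1 passed above 0 and 31 below. Other groups passed too. Of 243 genes on 8 liver lists 25 were above 0 and 4 below, where 50 had fallen from 4 h to 12 h and 0 rose from 16 h to 24 h. Of 31 cytokine genes 14 were above 0 and 0 below, and 14 had fallen from 4 h to 12 h. Of 38 immediate early genes 9 were above 0 and 1 below. The lists within the mitotic and replication groups were not uniform. The median step difference was 0.655 for spindle and cytokinesis genes, 0.04 for the kinetochore and -0.185 for the checkpoint list. It was -1.14 for origin licensing but 0.011 for the G1 list, where 4 of 24 passed below 0. The median log2 difference of the mitotic genes was 0.552 from 4 h to 12 h and 0.847 from 16 h to 24 h, while that of the replication genes was 0.849 and then 0.213.

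Single genes went either way. MCM2 rose by 2.59 between 4 h and 12 h and differed by -0.014 between 16 h and 24 h, a difference of -2.61 between the steps (SE 0.315, limma adjusted p = 8.4e-07). The corresponding differences were -1.52 for CDC6, which loads the helicase (adjusted p = 0.0042), -1.26 for PCNA (adjusted p = 0.002), -1.52 for CCNE2, cyclin E2 (adjusted p = 0.0025), and -1.85 for CCND1 (adjusted p = 3.2e-06). CCNE1, cyclin E1, differed by -0.33 between the steps and was not called (adjusted p = 0.72). In the opposite sense NUSAP1 differed by -0.65 from 4 h to 12 h, under 2-fold, and rose by 2.22 in the later step, a difference of 2.87 (SE 0.21, adjusted p = 7.9e-11). For PBK the difference was 1.58 (adjusted p = 6.5e-06), for AURKB 1.58 (adjusted p = 0.0011), for NCAPG2 1.30 (adjusted p = 0.0058) and for RRM2 1.77 (adjusted p = 8.8e-07). CCNB1 and AURKA rose in both steps, CCNB1 by 1.78 and then 1.69 and AURKA by 1.86 and then 2.16, and the difference did not pass for either (adjusted p = 0.88 and 0.64), though that of AURKA ranged from 0.033 to 1.18 over 22 alternatives and passed as the mean of its probe sets. The step difference passed below 0 for 5 mitotic genes. For CDC25A, the phosphatase that activates CDKs at S phase entry, it was -2.64 (adjusted p = 0.00051). For KNTC1 and ZWILCH, partners in a kinetochore complex, it was -1.83 (adjusted p = 0.045) and -1.49 (adjusted p = 0.017). For CDCA8, borealin of the passenger complex, it was -1.36 (adjusted p = 0.012). For GMNN, geminin, which blocks relicensing of origins, it was -1.06 (adjusted p = 0.0017). These 5 are named because they are few, after their values were seen. The KNTC1 difference did not pass under 13 of the 22 alternatives, 10 of which left out a single array, that of ZWILCH under 5, that of GMNN under 4, that of CDC25A as the mean of its probe sets and that of CDCA8 with the larger constant. CDC20 rose by 2.21 and then by 1.23, a difference of -0.98 (adjusted p = 0.017), just under 2-fold and called under 8 of the 22.

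Of all 82 genes that rose from 16 h to 24 h, 18 had also risen from 4 h to 12 h, which is 22% of the 82 and 5.22% of the 345 risen in the earlier step (3.46% of genes tested). Of the 49 that fell, 13 had also fallen then, 26.5% of the 49 and 3.44% of the 378 fallen in that step (3.79% of genes tested).

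**Figure D4:**
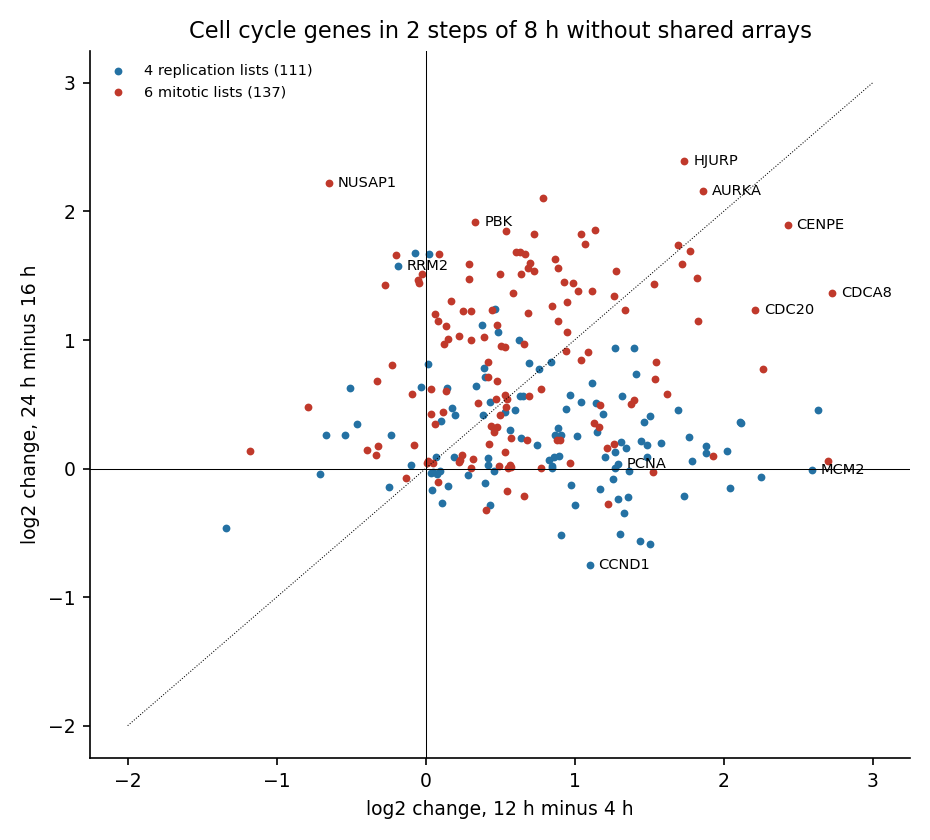
The log2 difference from 4 h to 12 h (horizontal) against that from 16 h to 24 h (vertical) for the 137 mitotic (red) and 111 replication genes (blue), which come from separate arrays, with a dotted line where both are equal. Replication genes such as MCM2 spread along the horizontal axis near 0 on the vertical one, and mitotic genes spread upward.

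The neighbouring steps share arrays with this one, so their values are only set side by side. From 12 h to 16 h 11 genes rose (0.11%) and 13 fell (0.13%), and from 24 h to 48 h 32 rose (0.321%) and 87 fell (0.873%). The mitotic genes had a median difference of 0.334 from 12 h to 16 h, 0.847 from 16 h to 24 h and -0.016 from 24 h to 48 h. Relative to the mean of 16 h, the median over these genes on single arrays was -0.06 to 0.063 at 16 h, 0.79 to 1.019 at 24 h and 0.798 to 0.892 at 48 h. It had been -0.573 to -0.445 at 0 h and -1.08 to -0.819 at 4 h. Of the 82 genes that rose, 32 had their highest mean at 24 h and 45 at 48 h.

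**Figure D5:**
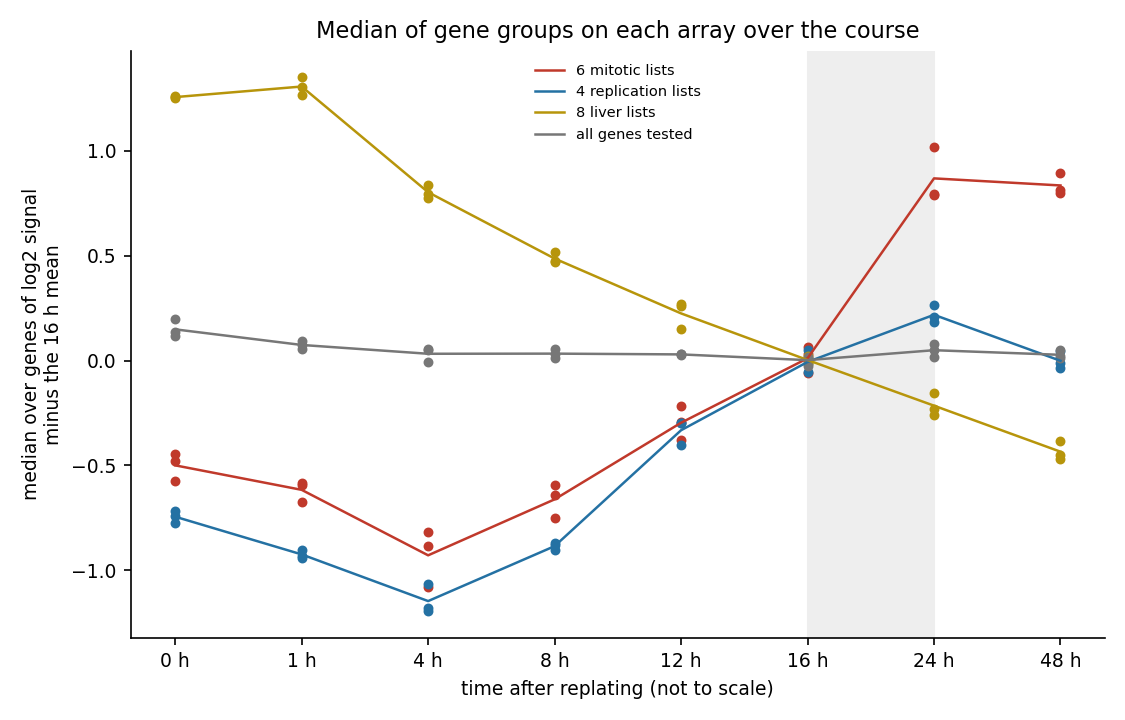
The median over genes of the log2 signal minus the 16 h mean on each of the 24 arrays (points) and its mean by time (lines) for the mitotic, replication and liver lists and for all genes tested, with 16 h to 24 h shaded and times spaced evenly, not to scale. The mitotic line is level between 24 h and 48 h after its rise, and the liver line falls throughout from 1 h on.

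On the other side of the comparison were liver genes. Of 243 tested genes on 8 liver lists 18 fell, 0 rose and the median was -0.223, and the 18 made up 36.7% of all genes that fell. FABP1, the fatty acid-binding protein of the hepatocyte cytosol, was on none of these lists and had the largest fall, from 3504, 4428 and 5862 to 795.9, 865 and 833.1. It was 5.32-fold lower (log2 -2.41, SE 0.196, limma adjusted p = 4.3e-10), with the 3 values at 24 h close together and far under those at 16 h. The summed hepatocyte markers given above, which include the fallen genes CYP3A4 and CYP2E1, were lower on the 24 h arrays. The part of a change in hepatocyte markers in these falls was not tested.

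Drug metabolism held 10 of the 18. Of its 46 tested genes 10 fell, 0 rose and the median was -0.208, while 15 genes were above 0, the highest at 0.729. GSTA4, a glutathione transferase, was higher under 2-fold (log2 0.64, limma adjusted p = 0.033). UGT2A3, a glucuronosyltransferase on no list, rose, with means of 190.8 at 16 h and 434 at 24 h (log2 1.09, limma adjusted p = 0.01). CYP3A4, the main drug-oxidising cytochrome P450 of adult liver, went from 9708, 10800 and 10280 to 1919, 1964 and 3606 (4.27-fold lower, log2 -2.09, SE 0.196, limma adjusted p = 9.9e-09). Its probe set may also bind other CYP3A transcripts, and the further probe sets gave -1.58, -2.24 and -0.29, the last of them dim. CYP2E1, which oxidises ethanol and small solvents, went from 2235, 2041 and 2491 to 529.8, 630.4 and 668.6 (log2 -1.86, limma adjusted p = 6.8e-06). SULT2A1, which sulfates steroids and bile acids, fell by 1.66 on the log2 scale (adjusted p = 2.7e-05). The nicotine oxidase CYP2A6 differed by -1.42 (adjusted p = 4.1e-05), and its further probe sets by -0.79, -0.89 and -1.25. CYP2B6 differed by -1.32 (adjusted p = 8.3e-05, not called as the mean of its probe sets). POR, the reductase that feeds electrons to cytochromes P450, differed by -1.14 (adjusted p = 1.8e-05).

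Amino acid handling lost 5 of 35 tested genes, 0 rose and the median was -0.341. ARG1, the last enzyme of the urea cycle, went from 215.5, 383.6 and 408.9 to 27.52, 118.2 and 71.46, with no overlap (4.16-fold lower, log2 -2.06, SE 0.268, limma adjusted p = 5.6e-06). UPB1, of pyrimidine breakdown, differed by -1.48 (adjusted p = 1.3e-05), GNMT, a methyltransferase that consumes S-adenosylmethionine, by -1.28 (adjusted p = 0.00063), and AGXT, the peroxisomal aminotransferase for glyoxylate, by -1.10 (adjusted p = 0.0011). CTH, which makes cysteine from cystathionine, differed by -1.06 (adjusted p = 0.0035). The call for AGXT ended without the second 24 h array and as the mean of its probe sets, and that for CTH without the third array of either time.

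Secreted liver proteins were nearly all a little lower, and 1 gene passed on each list. Of 46 plasma protein and apolipoprotein genes 41 had a difference below 0 and the median was -0.323, but only SERPIND1, heparin cofactor II, fell (log2 -1.18, limma adjusted p = 5.3e-05), and 2 fell without the second 16 h array. Of 23 complement genes 20 were below 0, the median was -0.225, and CFHR2, a factor H relative, differed by -1.19 (adjusted p = 1.8e-05, from a probe set that may also match its relatives). ALB, albumin, was level: 47170, 44290 and 37050 at 16 h and 43590, 49360 and 36160 at 24 h overlapped (log2 0.0024, SE 0.14, limma adjusted p = 1). Hepatocyte transcription factors had a median of 0.052, and of 20 tested limma called 0, with 0 at an unadjusted p under 0.05. Of 27 sterol and fatty acid synthesis genes 24 were below 0 and TM7SF2, a sterol reductase, fell (log2 -1.05, adjusted p = 0.00014), though not without the first 16 h or the second 24 h array.

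Outside the liver lists few members of a list fell: 1 of 45 genes of the actin and adhesion list, 1 of 26 of the EGF receptor and growth factor list, 2 of 42 of the matrix list and 1 of 17 of the biliary list, and 0 rose. AKAP12, a kinase scaffold, went from 14370, 11930 and 11570 to 4981, 6882 and 5055 (log2 -1.17, SE 0.174, limma adjusted p = 4e-05). EGFR, the receptor of EGF, went from 1420, 1118 and 1072 to 478.6, 604.3 and 222.7 (log2 -1.53, limma adjusted p = 2.4e-05). A further EGFR probe set gave -0.99 and a dim one 0.40, and the mean of the 3 was not called. KRT23, a keratin, went from 589.8, 426.7 and 491 to 125.8, 122.7 and 132.9 (log2 -1.83, limma adjusted p = 0.0042, not called with no constant added to the signals). MMP3, a matrix metalloprotease, went from 4229, 4584 and 4658 to 2149, 2420 and 1683 (log2 -1.12, adjusted p = 8.7e-05), a call that ended without the third 24 h array, and MMP12, another, fell by 1.3 on the log2 scale (adjusted p = 0.039), a call that ended without any one of the 6 arrays. Without the third 24 h array 0 matrix genes were called, and 1 without each of the others. Without the second 16 h array 2 genes of the actin list fell, and 2 of the EGF list without the first or second 16 h or the third 24 h array. KRT19, a biliary keratin, was near level (log2 -0.052, adjusted p = 0.93). For all 5 fallen genes the arrays of the 2 times did not overlap.

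Metallothioneins, small proteins that bind zinc and copper, had the lowest median of the 42 lists, -0.615 over 11 tested genes. Their sequences are near-identical, so the probe sets can share transcripts. Limma called 1 of them, MT1H, which went from 27280, 32440 and 25140 to 15910, 10060 and 16390 (log2 -1.03, adjusted p = 0.0023), and 6 had an adjusted p under 0.05 at any size of difference. The MT1H call ended without the second array of either time, and 2 metallothioneins were called without the third 16 h or the first 24 h array.

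Of the 131 genes, 49 were on no list, and by size of change those that rose were not led by genes of the cell cycle alone. After MXD3 came LRTM1, a leucine-rich repeat membrane protein, from 17.78, 14.46 and 12.97 to 119.2, 159.6 and 120.7 (log2 2.18, SE 0.549, limma adjusted p = 0.016). NELL2, a secreted protein of neurons, differed by 1.79 (adjusted p = 0.0086), and NRTN, the growth factor neurturin, by 1.78 (adjusted p = 0.019). All 3 were dim at 16 h, with most values under the 40th percentile of their array. The LRTM1 call ended without the third 16 h or the second 24 h array, that of NELL2 without the first or the third 16 h or the second 24 h array, and that of NRTN without the first 16 h or the first or the third 24 h array. Brighter genes that rose included FAM111A, a protease that helps forks pass obstacles, by 1.63 (adjusted p = 3.3e-06), PSIP1, a chromatin-bound coactivator, by 1.4 (adjusted p = 4.1e-05), TMPO, a protein of the nuclear lamina, by 1.1 (adjusted p = 3e-04), and EZH2, the methyltransferase of Polycomb complex PRC2, by 1.07 (adjusted p = 0.014), which was not called without the third 16 h or the second or the third 24 h array. Other bright genes on no list rose too. Among them was SLC7A7, with means of 936.9 at 16 h and 2442 at 24 h (log2 1.34, limma adjusted p = 9.3e-06). FAM111A, PSIP1, TMPO, EZH2 and SLC7A7 were chosen after their values were seen, as was CIDEC. From other lists, CDC42EP3, an effector of CDC42, rose by 1.18 (adjusted p = 0.00087) and BMAL1, a core clock factor, by 1.14 (adjusted p = 0.0021), the latter not without the second 16 h array.

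Among the genes on no list that fell, ABAT, which breaks down GABA, went from 1320, 1713 and 1941 to 484, 616.1 and 709 (log2 -1.43, SE 0.16, limma adjusted p = 3.5e-07). CIDEC, a lipid droplet protein, went from 3821, 3765 and 4481 to 1687, 1529 and 1485 (log2 -1.35, SE 0.134, limma adjusted p = 2.8e-08). RGN, a calcium-binding liver protein, differed by -1.44 (adjusted p = 0.00021), AQP9, a glycerol channel of hepatocytes, by -1.51 (adjusted p = 0.0035) and DHRS9, a short-chain dehydrogenase, by -1.89 (adjusted p = 0.0035). DNAAF1, an assembly factor of axonemal dynein, differed by -1.77 (adjusted p = 0.017), RASA2, a RAS GTPase-activating protein, by -1.61 (adjusted p = 0.0085), and KLK1, tissue kallikrein, by -1.53 (adjusted p = 0.047). The call ended for KLK1 without any one of the 6 arrays, for DNAAF1 without the second or the third 16 h or the first 24 h array, and for AQP9 and RASA2 without the first 24 h array.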

How the data were processed

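Total RNA (100 ng per sample) was amplified from its 3′ ends and hybridised to Affymetrix human 3′ expression arrays, per the labels' protocols, 1 array per sample and 3 per time. The authors deposited 1 signal intensity per probe set, summarised with MAS5 (per the submitters' processing notes, which name no version or scaling target). Such arrays measure the 3′ end of a transcript, and their number limits the precision.

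To the deposited intensities 18 was added (their 20th percentile) before taking log2, with no further normalization. Probe sets above the 40th percentile of their array on at least 3 of the 24 arrays were tested. Of 22215 probe sets, 19065 have 1 gene symbol in the platform annotation, 1043 have several and 2107 have none, and the probe set of highest mean stands for its gene. Of the genes tested, 763 rest on probe sets that may also match related transcripts. Limma 3.58.1 in R 4.3.3 fitted the means of all 8 times to the 24 arrays (16 residual and 15.6 prior degrees of freedom, variance trend), with Benjamini-Hochberg adjustment over all genes. The script was tested on simulated data. Motifs were searched with Python 3.11.15 in promoters from the RefSeq table.

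Genes were named by a rule: the 15 largest rises and falls without overlap, up to 5 called members of each list or the largest uncalled one, and a set of genes always given; not every gene that meets it is described. AURKB, BUB1B, TPX2, KIF20A, RACGAP1, CDC16, CDC23, CDC27, CYP2B6, POR, CIDEC, FAM111A, PSIP1, TMPO, EZH2, BUB1, KIF11, ACTA2, GSTA4 and the 5 mitotic genes whose step difference passed below 0 fall outside it and were chosen after their values were seen. SLC7A7 and UGT2A3 fall outside it as well and were chosen in the same way. The members and lists were chosen with earlier results of these data known. Alternatives covered pseudocount, filter, scaling, probe set choice, arrays fitted, a replicate block and single arrays left out. The arrays left out were each of 16 h and 24 h, each of 4 h and 12 h for the difference between steps, and the second 0 h array for counts and step differences.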

Additional observations from a re-analysis of the deposited data

Results flagged for a closer look

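The later step, from 16 h to 24 h, differed from the step from 4 h to 12 h by a test of the difference itself, and the 2 steps share no array. In the limma fit the later change minus the earlier one passed above 0 for 420 genes (4.21%) and below 0 for 284 (2.85%). The former include genes that fell in the earlier step and did not rise in the later one. On the log2 scale the difference was 1.05 for CDK1, 1.02 for BIRC5 and 1.77 for RRM2. The RRM2 difference passed under all 22 alternatives. That of CDK1 did not pass under 7 of them, among them without the second 16 h, the third 24 h, the first or second 4 h or the third 12 h array, and ranged from 0.57 to 1.32. That of BIRC5 did not pass under 14 of the 22, 8 of which left out a single array, and ranged from 0.26 to 1.24.

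For the 111 genes on the replication lists the step difference passed below 0 for 31 and above 0 for 1. Among the single genes given, the difference was -2.61 for MCM2, -2 for E2F1, the founding E2F factor, -1.85 for CCND1, -1.52 for CCNE2, -1.52 for CDC6 and -1.26 for PCNA. Those of MCM2, CCND1, CDC6 and PCNA passed under all 22 alternatives. That of CCNE2 did not pass as the mean of its probe sets (-0.92), and that of E2F1 did not pass under 2 alternatives, 1 of them without the second 4 h array.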

How the results depend on the processing

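With every tested probe set on its own, 115 probe sets were higher and 82 lower, against 82 and 49 genes, since a gene can then count more than once. Under the other alternatives that kept all arrays, 72 to 94 genes were higher and 33 to 58 lower. Leaving out 1 array at a time gave 73 to 93 higher and 44 to 56 lower genes, of which at least 64 and 35 were among those of the full set. The same gave 351 to 437 and 249 to 301 genes for the difference between steps. Of 77 named genes that were called, 50 were called in every one of the 15 settings that tested them, and 0 reversed. SLC7A7 and UGT2A3 were not among the 77. Alternatives other than dropping single arrays also ended the calls of CTH, TM7SF2, MT1H, MMP12, EZH2, BMAL1, CDC42EP3, NRTN, DNAAF1, KLK1, AQP9 and RASA2. Values near 0 changed sign. Without single arrays MCM2 ran from -0.25 to 0.18. PCNA was -0.028 under median centring and -0.12 to 0.2 without single arrays. ALB was -0.061 under median centring, -0.016 as the mean of its probe sets and -0.1 to 0.12 without single arrays. CDC27 was -0.058 under median centring and -0.22 to 0.39 without single arrays, and CDC16 -0.0086 to 0.2. CCNE1 ran from -0.19 to 0.079 without single arrays, and KRT19 was 0.016 after quantile normalization and -0.16 to 0.12 without single arrays. The step difference of CCNB1 was 0.091 with the larger pseudocount and -0.2 to 0.064 without single arrays. The cause was not tested.

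The labels do not say whether the replicate numbers pair the samples. Deviations from the group means correlated at -0.002, -0.001 and 0.034 for same-numbered arrays of the 2 times. For the other pairs the range was -0.025 to 0.025. These values cannot decide the question, since paired cultures that differ little would give them too. With the replicate number as a block 81 genes were higher and 49 lower, of which 79 and 48 were called without it, and 421 and 281 differed between steps.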
